A study of Rattus norvegicus with 12 samples.

Results

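The genes described here equip the intercalated cells of the kidney collecting duct to move acid and base. Of 9 listed genes (Foxi1, Atp6v1b1, Atp6v1g3, Atp6v0a4, Atp6v0d2, Slc4a1, Slc26a4, Car2 and Rhcg), 8 had a probe set named for them alone in the array annotation, out of 14217 genes so named. Atp6v0d2 had none and is not analysed here. The 8 genes were read by 11 probe sets, with a pair of probe sets each for Atp6v1g3, Slc4a1 and Car2. All 8 lay above the detection level of 5.74 (log2) in every pool, so all 8 were among the 10895 genes tested.

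Kidney RNA was measured on Affymetrix rat expression arrays in 4 strains at 30 days of age, all fed the 5LOD diet. SD rats are outbred Sprague Dawley animals. PCK rats descend from them and carry a mutated Pkhd1, which in people underlies autosomal recessive polycystic kidney disease. FHH rats are inbred (Fawn Hooded Hypertensive), and FHH.Pkhd1 rats (full name FHH.PCK-(D9Rat35-D9Rat70)/Mcwi) are FHH congenics holding a stretch of chromosome 9 from PCK. By their labels, SD and FHH do not hold it. Each strain was 1 pool of RNA from whole kidneys, both kidneys of 6 animals, hybridized to 3 arrays. The 3 arrays of a strain are therefore technical replicates, and the standard deviations, standard errors (SE) and p-values below measure how far pools differ relative to array scatter, with animal scatter unknown.

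Intercalated cells lie scattered among the principal cells of the collecting duct. Type A cells pump protons into the urine with a vacuolar proton pump on their luminal side and return bicarbonate to the blood through the exchanger encoded by Slc4a1. Type B cells secrete bicarbonate in exchange for chloride through pendrin, encoded by Slc26a4. Foxi1 is the transcription factor that intercalated cells need to form, and the genes of the luminal pump and of pendrin are known as its targets. Car2, a cytosolic carbonic anhydrase, supplies protons and bicarbonate in both cell types, and Rhcg is an ammonia channel of the collecting duct.

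Stretches of 250 bases upstream of a transcript start are shown for 4 of these genes, since Foxi1 and the genes known as its targets are the subject. They were taken from RefSeq on GRCr8, where 6 of the 9 genes had an entry. The forkhead core TGTTTA, or its reverse complement, and the longer TGTTTAC, which contains the core, were searched on both strands, and matches are in capitals. Foxi1 lies at chr10:19314406-19314655, minus strand, Atp6v1b1 at chr4:117781194-117781443, plus strand, Atp6v1g3 at chr13:52362082-52362331, plus strand and Atp6v0a4 at chr4:67809093-67809342, minus strand, and each is written 5′ to 3′ on the strand of its gene.
Foxi1: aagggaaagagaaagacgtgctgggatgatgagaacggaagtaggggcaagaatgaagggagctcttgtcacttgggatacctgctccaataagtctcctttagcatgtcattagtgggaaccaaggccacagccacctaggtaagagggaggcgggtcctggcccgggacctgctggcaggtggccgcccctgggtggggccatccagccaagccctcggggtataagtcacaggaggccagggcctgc
Atp6v1b1: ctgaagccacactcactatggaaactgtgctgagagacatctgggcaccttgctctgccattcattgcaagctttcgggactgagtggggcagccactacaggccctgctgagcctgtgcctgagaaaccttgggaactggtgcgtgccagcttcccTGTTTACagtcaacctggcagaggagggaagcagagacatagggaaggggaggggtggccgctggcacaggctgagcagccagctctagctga
Atp6v1g3: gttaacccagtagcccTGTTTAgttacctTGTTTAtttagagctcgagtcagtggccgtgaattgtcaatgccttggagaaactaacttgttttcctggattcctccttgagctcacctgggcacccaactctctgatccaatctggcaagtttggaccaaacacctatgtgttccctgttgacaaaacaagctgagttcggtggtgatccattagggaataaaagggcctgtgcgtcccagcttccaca
Atp6v0a4: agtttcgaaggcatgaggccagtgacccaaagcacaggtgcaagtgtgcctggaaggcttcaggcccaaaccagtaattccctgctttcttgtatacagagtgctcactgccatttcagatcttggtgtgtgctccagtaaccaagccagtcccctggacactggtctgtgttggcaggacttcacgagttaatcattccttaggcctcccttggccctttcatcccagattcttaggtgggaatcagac
The Atp6v1b1 stretch held 1 match, to the longer motif, starting 93 bases before the start. The Atp6v1g3 stretch held 2 matches to the core, starting 234 and 221 bases before it. These letters did not occur in the windows of Foxi1, Atp6v0a4, Slc26a4 and Rhcg. Of 33469 RefSeq promoters, 12.14% held the core and 3.21% the longer motif within 250 bases, so a match is a description of these letters and not a site. The windows of Atp6v1g3 and Slc26a4 lie inside the RefSeq span of their gene, and that of Rhcg partly so, which places another start further upstream.

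Array medians lay between 6.41 and 6.46 (log2). Arrays of 1 pool correlated at 0.9973 to 0.9985 and arrays of different pools at 0.9862 to 0.9959. Precision is limited by having 3 arrays a pool. Kidney markers were high in every pool, with Umod, the main protein of the thick ascending limb, at 13.40 to 13.69 and Pck1, a proximal tubule enzyme of ammonia and glucose formation, at 13.21 to 13.26. The poly-A spike controls averaged 10.81 in the PCK pool, 10.47 in SD, 11.11 in FHH and 10.01 in FHH.Pkhd1, and the beta-actin 3′ minus 5′ difference, a sign of RNA length, was 1.33, 1.10, 1.39 and 1.20 in the same order. The part of these controls in the differences below was not tested.

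In the PCK kidney pool compared with SD, Foxi1 rose 1.55-fold. Rhcg was 1.48-fold, Atp6v1g3 1.38-fold and Slc26a4 1.35-fold higher, with adjusted p-values of 6.28e-07, 9.94e-07 and 3.58e-05 but under the 1.5-fold limit used here for a call. In the FHH.Pkhd1 pool compared with FHH, Slc4a1 rose 1.57-fold, and the same 4 genes were higher by 1.14-fold (Rhcg) to 1.25-fold (Foxi1), again under the limit. Atp6v1b1 did not pass the adjusted p in any comparison as fitted. The plot of the 8 genes by array shows these values.

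**Figure D1:**
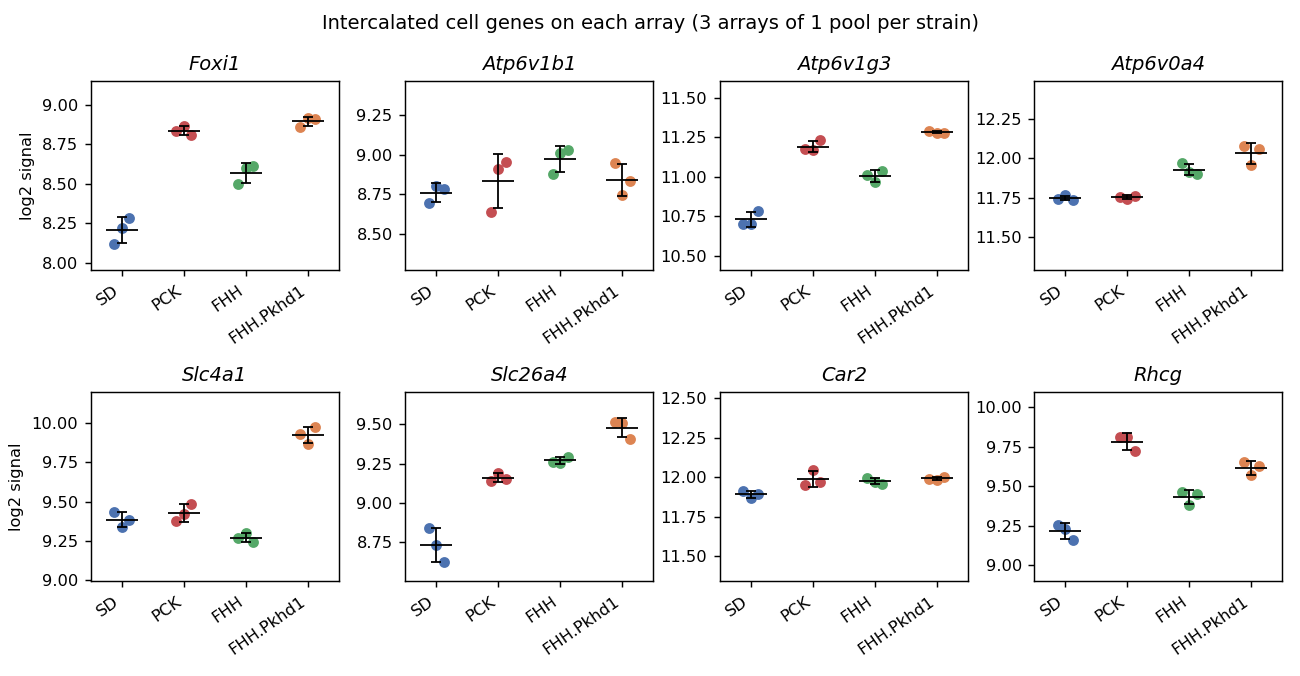
Log2 signal of the 8 intercalated cell genes on each array (1 panel per gene, main probe set, the vertical axes spanning equal log2 ranges but starting at different levels). Points are the 3 arrays of each strain's pool, long bars the pool means and short capped bars the standard deviation (n = 3 arrays). Foxi1, Atp6v1g3, Slc26a4 and Rhcg were lowest on all 3 SD arrays, and Slc4a1 was highest on the 3 FHH.Pkhd1 arrays.

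Foxi1 read 8.12, 8.22 and 8.28 (log2) on the SD arrays, 8.84, 8.86 and 8.81 on the PCK arrays, 8.50, 8.60 and 8.61 on the FHH arrays and 8.86, 8.92 and 8.91 on the FHH.Pkhd1 arrays. Every SD array was below every other array, and the PCK and FHH.Pkhd1 arrays overlapped. PCK exceeded SD by 0.63 ± 0.05 (log2 difference ± SE, limma adjusted p = 5.68e-07). FHH.Pkhd1 exceeded FHH by 0.32 ± 0.05 (adjusted p = 0.000376), and the excess in the PCK pair was larger by 0.31 ± 0.07 (adjusted p = 0.00395). SD lay 0.36 below FHH (adjusted p = 7.17e-05). Between PCK and FHH.Pkhd1 the Foxi1 difference was -0.06 ± 0.05 (adjusted p = 0.309) and turned to 0.00 with each array centred on its median.

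Among the subunits of the proton pump, Atp6v1g3, the G subunit of the cytosolic sector found in intercalated cells, moved most like Foxi1. Its main probe set read 10.70, 10.70 and 10.78 in SD, 11.17, 11.17 and 11.23 in PCK, 11.01, 10.97 and 11.04 in FHH, and 11.29, 11.28 and 11.28 in FHH.Pkhd1. The groups did not overlap in any pair of pools, with SD lowest and FHH.Pkhd1 highest. PCK exceeded SD by 0.46 ± 0.04 (adjusted p = 9.94e-07) and FHH.Pkhd1 exceeded FHH by 0.28 ± 0.04 (adjusted p = 0.000182). The second probe set gave 0.44 ± 0.05 and 0.34 ± 0.05 for these differences. The probe sets disagreed elsewhere. SD lay 0.27 below FHH by the main one (adjusted p = 9.31e-05) and 0.01 above it by the other (adjusted p = 0.906), and PCK minus FHH.Pkhd1 was -0.09 by the main one (adjusted p = 0.0485) and 0.11 by the other (adjusted p = 0.0925).

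Atp6v0a4, the a4 subunit of the membrane sector, followed the background strain. It read 11.75 ± 0.02 (standard deviation, n = 3 arrays) in the SD pool and 11.75 ± 0.01 in PCK, against 11.93 ± 0.04 in FHH and 12.03 ± 0.07 in FHH.Pkhd1. PCK and SD differed by 0.00 ± 0.04 (adjusted p = 0.935), and their arrays overlapped. FHH.Pkhd1 exceeded FHH by 0.10 ± 0.04 (adjusted p = 0.0735), also with overlapping arrays. Every array of the FHH and FHH.Pkhd1 pools lay above every SD and PCK array, with SD 0.18 below FHH (adjusted p = 0.00288) and PCK 0.28 below FHH.Pkhd1 (adjusted p = 6.82e-05).

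Atp6v1b1, the B1 subunit of the cytosolic sector, whose loss causes distal renal tubular acidosis in people, showed the widest scatter between arrays. Its values ran from 8.69 to 8.80 in SD, 8.64 to 8.96 in PCK, 8.88 to 9.03 in FHH and 8.75 to 8.95 in FHH.Pkhd1. Of the pairs of pools, SD and FHH alone did not overlap, with SD 0.21 ± 0.08 lower (adjusted p = 0.0529). That p fell under 0.05 in 6 alternatives, namely the 60th percentile filter, the intensity trend, the compared pools alone, and without PCK replicate 1 (0.0131), PCK replicate 3 (0.0454) or FHH replicate 1 (0.0410). Without PCK replicate 1, its lowest array, the interaction (PCK minus SD, less FHH.Pkhd1 minus FHH) also passed (0.31, adjusted p = 0.0215). The difference was 0.07 ± 0.08 for PCK minus SD (adjusted p = 0.503) and -0.13 ± 0.08 for FHH.Pkhd1 minus FHH (adjusted p = 0.265).

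For 3 of these subunits the array also read the paralogue that most cells use, in the plot of paired subunits. Atp6v1b2 was lower in PCK than in SD by 0.26 ± 0.04 (adjusted p = 0.000334) and lower in FHH.Pkhd1 than in FHH by 0.21 ± 0.04 (adjusted p = 0.00272). Atp6v1g1 was 0.22 ± 0.05 lower in PCK than in SD (adjusted p = 0.00346), where Atp6v1g3 was higher, and 0.17 ± 0.05 higher in FHH.Pkhd1 than in FHH (adjusted p = 0.0238). These paralogue differences were under 1.5-fold. Atp6v0a1 differed by -0.03 ± 0.07 (adjusted p = 0.798) and 0.05 ± 0.07 (adjusted p = 0.701) in the same pairs, and Atp6v0d1, the paralogue of the unread Atp6v0d2, by 0.02 ± 0.04 (adjusted p = 0.732) and -0.08 ± 0.04 (adjusted p = 0.107).

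**Figure D2:**
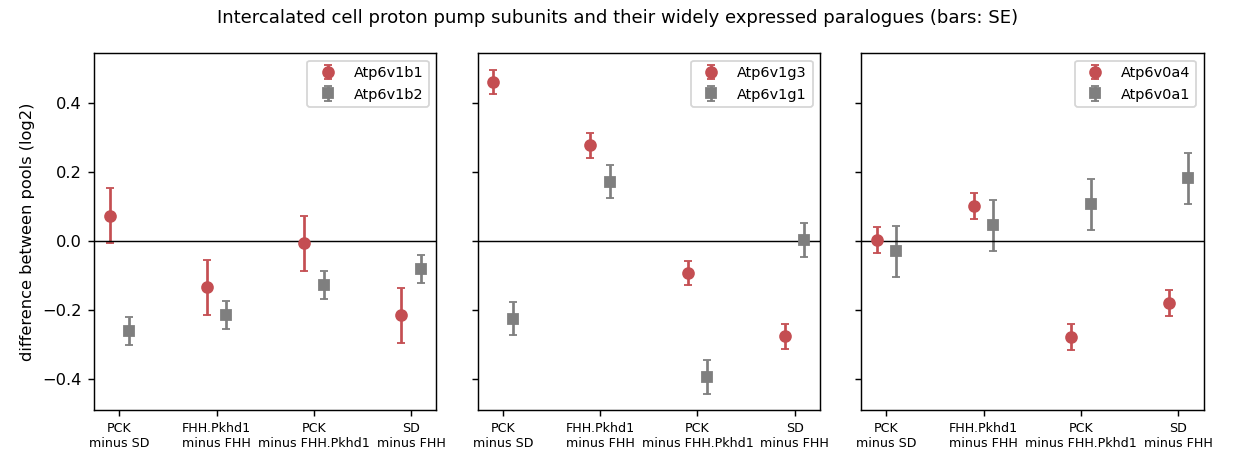
Log2 difference between pools (vertical axis) in 4 comparisons (horizontal axis) for 3 proton pump subunits of intercalated cells (circles) and their widely expressed paralogues (squares). Bars are SE from the limma fit. In PCK minus SD, Atp6v1g3 lay at 0.46 and Atp6v1g1 at -0.22.

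Of 19 other proton pump subunits tested, none was called in any comparison. Over all genes tested, 339 were called between PCK and SD and 138 between FHH.Pkhd1 and FHH. In PCK minus SD, 4 were higher and 3 lower at an adjusted p under 0.05, shares near those of all genes (17.3% higher and 18.8% lower), with a median of 0.01 beside -0.00. In FHH.Pkhd1 minus FHH, 4 were higher and 1 lower, against 12.5% and 9.70% of all genes, with a median of 0.03 beside 0.01. The largest difference among the 19 in PCK minus SD was that of Atp6v1c2, a C subunit isoform, at 0.35 ± 0.05 higher in PCK (adjusted p = 0.000248) and 0.32 ± 0.05 higher in FHH.Pkhd1 (adjusted p = 0.00106). Atp6v0c, the proteolipid of the membrane ring, was 0.34 ± 0.07 higher in FHH.Pkhd1 than in FHH (adjusted p = 0.00335), and Atp6v0b, a second ring protein, was 0.29 ± 0.10 higher in PCK than in SD (adjusted p = 0.0419).

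Of the anion exchangers, Slc4a1 read 9.43, 9.34 and 9.38 in SD, 9.37, 9.42 and 9.49 in PCK, 9.27, 9.30 and 9.24 in FHH, and 9.93, 9.87 and 9.97 in FHH.Pkhd1. The 3 FHH.Pkhd1 arrays stood above all 9 others, and SD and PCK overlapped. FHH.Pkhd1 exceeded FHH by 0.65 ± 0.04 (adjusted p = 5.50e-07), while PCK minus SD was 0.04 ± 0.04 (adjusted p = 0.458). The interaction was -0.61 ± 0.06 (adjusted p = 9.53e-06), a call that fell just under 1.5-fold, at -0.58, with quantile normalization and without PCK replicate 1, SD replicate 1 or FHH.Pkhd1 replicate 3. The second probe set showed FHH.Pkhd1 0.91 ± 0.07 above FHH (adjusted p = 3.18e-06) and 0.61 ± 0.07 above PCK (adjusted p = 2.03e-05), and its interaction was -0.97 ± 0.10 (1.96-fold, adjusted p = 1.74e-05). By the main probe set PCK lay 0.49 ± 0.04 below FHH.Pkhd1 (adjusted p = 1.19e-06), under the limit.

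Slc4a1 is also the band 3 gene of red cells, so red cell transcripts are given beside it. Of 12 red cell markers 4 were tested. Hbb, a globin chain of haemoglobin, was 0.79 ± 0.04 lower in PCK than in SD (adjusted p = 6.63e-09). Alas2, the first enzyme of red cell haem synthesis, was 1.13 ± 0.07 lower (adjusted p = 1.56e-07), and Ahsp, which stabilises alpha globin, was 1.91 ± 0.07 lower (adjusted p = 1.79e-09).

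Hbb, Alas2 and Ahsp were highest in SD, where Slc4a1 was not. Ank1, the ankyrin of the red cell membrane, was instead highest in PCK, 0.18 ± 0.06 above SD (adjusted p = 0.0442). The summed level of the 4 (linear signals added, then log2) was 13.52 to 13.54 on the SD arrays, 12.70 to 12.74 in PCK, 12.60 to 12.64 in FHH and 12.74 to 12.85 in FHH.Pkhd1. None of the 4 was called between FHH.Pkhd1 and FHH, where Hbb was 0.19 ± 0.04 higher (adjusted p = 0.00272) and Ank1 differed by -0.11 ± 0.06 (adjusted p = 0.240). Epb42, Rhag, Gata1 and Klf1 lay below the detection level in every pool.

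**Figure D3:**
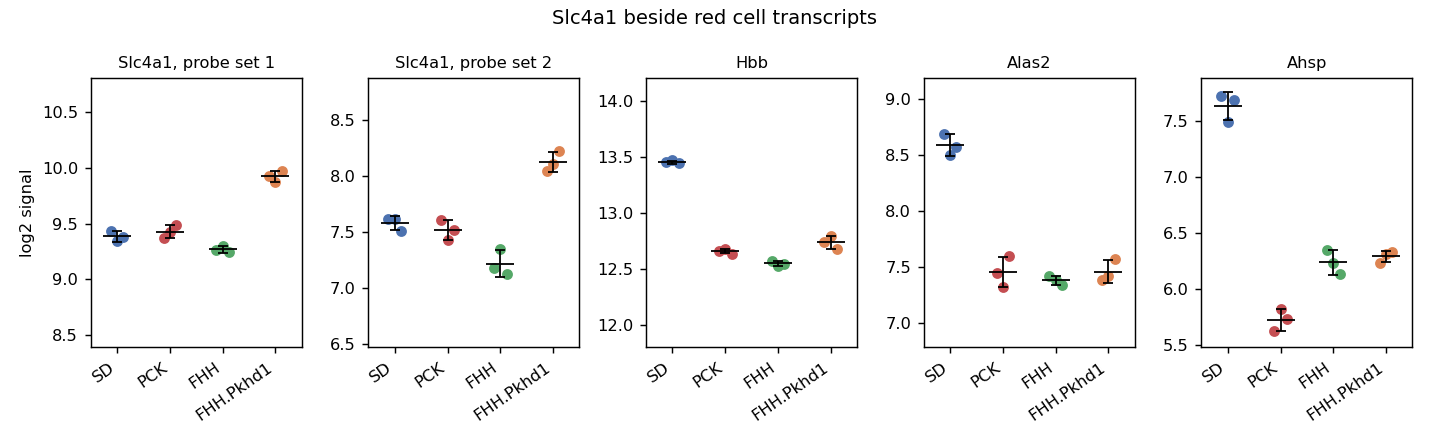
Log2 signal on each array for both probe sets of Slc4a1 and for the red cell transcripts Hbb, Alas2 and Ahsp (vertical axes start at different levels). Points are arrays, long bars pool means and short capped bars the standard deviation (n = 3 arrays). Both Slc4a1 probe sets were highest in FHH.Pkhd1, and Hbb, Alas2 and Ahsp were highest in SD.

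Slc26a4, which encodes pendrin, read 8.84, 8.73 and 8.63 in SD, 9.14, 9.19 and 9.15 in PCK, 9.26, 9.25 and 9.29 in FHH, and 9.52, 9.51 and 9.41 in FHH.Pkhd1. The 4 pools did not overlap, in rising order SD, PCK, FHH and FHH.Pkhd1. PCK exceeded SD by 0.43 ± 0.05 (adjusted p = 3.58e-05) and FHH.Pkhd1 exceeded FHH by 0.21 ± 0.05 (adjusted p = 0.0113). The backgrounds differed too, with SD 0.54 ± 0.05 below FHH (adjusted p = 5.39e-06) and PCK 0.32 ± 0.05 below FHH.Pkhd1 (adjusted p = 0.000234). Without SD replicate 1, the highest of the SD arrays, SD minus FHH was -0.59 and passed the 1.5-fold limit.

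Rhcg, the ammonia channel, was the gene of the set whose highest pool was PCK and whose PCK arrays lay above all others. It read 9.26, 9.23 and 9.16 in SD, 9.81, 9.81 and 9.72 in PCK, 9.46, 9.38 and 9.45 in FHH, and 9.66, 9.57 and 9.63 in FHH.Pkhd1, with no overlap between any pair of pools. PCK exceeded SD by 0.57 ± 0.04 (adjusted p = 6.28e-07), just under 1.5-fold, and passed the limit without PCK replicate 3 (0.60) or SD replicate 1 (0.59). FHH.Pkhd1 exceeded FHH by 0.19 ± 0.04 (adjusted p = 0.00735), and the difference between the PCK and congenic pairs was 0.38 ± 0.06 (adjusted p = 0.000491). PCK also exceeded FHH.Pkhd1, by 0.16 ± 0.04 (adjusted p = 0.00606).

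Car2, which proximal tubule and other cells express as well, spanned the least. Its main probe set read 11.89 ± 0.02 (standard deviation, n = 3 arrays) in the SD pool, 11.99 ± 0.05 in PCK, 11.98 ± 0.02 in FHH and 11.99 ± 0.01 in FHH.Pkhd1, and of the 4 pools the SD arrays alone lay apart from the rest. PCK exceeded SD by 0.10 ± 0.03 (adjusted p = 0.0389), but by the second probe set the difference was -0.05 ± 0.04 (adjusted p = 0.363). FHH.Pkhd1 minus FHH was 0.02 ± 0.03 (adjusted p = 0.753).

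Read across the 8 genes by their main probe sets, the SD pool had the lowest mean of the 4 pools for 7, all but Slc4a1, and the FHH.Pkhd1 pool had the highest for 6, all but Atp6v1b1 and Rhcg. By the second probe sets, Atp6v1g3 was lowest in FHH (8.67, against 8.68 in SD) and highest in PCK (9.12), and Car2 was lowest in PCK (11.55), so that 5 were lowest in SD and 5 highest in FHH.Pkhd1. Over all genes tested, 30.1% were lowest in SD and 37.4% highest in FHH.Pkhd1. The span between the highest and lowest pool mean was 0.74 for Slc26a4, 0.69 for Foxi1, 0.65 for Slc4a1, 0.57 for Rhcg, 0.55 for Atp6v1g3, 0.28 for Atp6v0a4, 0.21 for Atp6v1b1 and 0.10 for Car2, against a median of 0.23 over all genes tested. In whole kidney RNA, a change in the number of intercalated cells and a change in RNA per cell cannot be told apart.

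**Figure D4:**
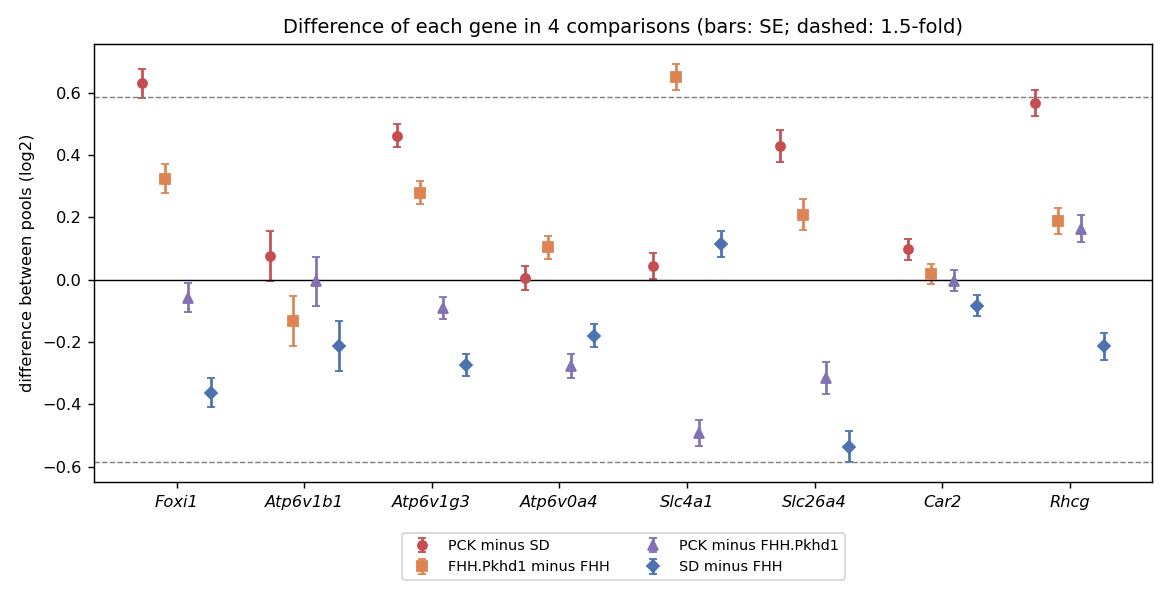
Log2 difference between pools (vertical axis) for each of the 8 genes (horizontal axis) in 4 comparisons, with SE bars from the limma fit and dashed lines at 1.5-fold. Beyond the lines lie Foxi1 (PCK minus SD) and Slc4a1 (congenic pair), and the differences of Car2 reach at most 0.10 in size in the 4 comparisons.

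In PCK minus SD, 1 of the 8 genes (Foxi1) was called higher, against 1.69% of all genes tested, and none lower. At an adjusted p under 0.05 alone, 5 of 8 were higher, against 17.3% of all genes. Car2, the weakest of the 5 (adjusted p = 0.0389), dropped out in several alternatives, which left 4 of 8 higher. The median difference was 0.26 beside -0.00 over all genes. In FHH.Pkhd1 minus FHH, 1 of 8 (Slc4a1) was called higher, against 0.395% of all genes, and 5 of 8 were higher at the adjusted p alone, against 12.5%. The median was 0.20 beside 0.01. These shares describe a set of 8 genes picked with earlier results of these data known.

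Between the pools that share the PCK segment, PCK and FHH.Pkhd1, none of the 8 was called, against 5.83% of all genes in either direction. At the adjusted p alone, 1 was higher in PCK (Rhcg), against 18.3% of all genes, and 4 were lower (Slc4a1, Slc26a4, Atp6v0a4 and Atp6v1g3), against 35.6%. The median was -0.07 beside -0.06 over all genes. With each array centred on its median, 25.5% of all genes were lower and 26% higher, and Atp6v1g3 no longer passed (-0.03, adjusted p = 0.536).

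Between the pools without it, SD and FHH, none of the 8 was called, against 3.31% of all genes in either direction. At the adjusted p alone, 5 were lower in SD (Slc26a4, Foxi1, Atp6v1g3, Rhcg and Atp6v0a4), against 24.4% of all genes. Rhcg was 0.21 ± 0.04 lower in SD (adjusted p = 0.00179), and Slc4a1 was 0.11 ± 0.04 higher by its main probe set (adjusted p = 0.0502) and 0.36 ± 0.07 higher by the second (adjusted p = 0.00165). The median was -0.21 beside -0.04. With each array centred on its median, 16% of all genes and 5 of the 8 were lower, and 1 of the 8 higher.

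Set against each other, the PCK pair (PCK minus SD) and the congenic pair (FHH.Pkhd1 minus FHH) differed for 5 of the 8 genes. Slc4a1 was called lower in the first minus the second, against 2.12% of all genes called lower, and it alone was lower at the adjusted p, against 16.7%. The other 4 had the larger excess in the PCK pair, against 14.0% of all genes. They were Rhcg, Foxi1, Slc26a4 by 0.22 ± 0.07 (adjusted p = 0.0338) and Atp6v1g3 by 0.18 ± 0.05 (adjusted p = 0.0171), the last at 0.10 ± 0.07 by its second probe set (adjusted p = 0.325).

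Other markers of intercalated cells were listed too. Of 10, 5 were tested and none was called in any comparison, where at most 5.83% of all genes were called. Dmrt2, a transcription factor of type A cells, was 0.37 ± 0.06 higher in PCK than in SD (adjusted p = 0.000443) and differed by 0.09 ± 0.06 between FHH.Pkhd1 and FHH (adjusted p = 0.345). P2ry14, a nucleotide sugar receptor, was 0.20 ± 0.04 lower in PCK than in SD (adjusted p = 0.00344), and Tfcp2l1, a transcription factor of collecting duct cells, lay 0.18 ± 0.06 lower in FHH.Pkhd1 than in FHH (adjusted p = 0.0433). In the interaction, 3 of the 5 were higher and 1 lower at the adjusted p alone, against 14.0% and 16.7% of all genes, with a median of 0.20 beside 0.20 for the 8 genes. Tfcp2l1 stood at 0.31 ± 0.08 (adjusted p = 0.0148) and Dmrt2 at 0.29 ± 0.09 (adjusted p = 0.0231). Aqp6, Kit and Spink8 lay below the detection level. The summed level of the 5 was 11.20 to 11.24 in SD, 11.34 to 11.41 in PCK, 11.29 to 11.32 in FHH and 11.20 to 11.28 in FHH.Pkhd1, which differs in order from the 8 genes. This linear sum follows its brightest genes, Tfcp2l1 (10.07 in FHH.Pkhd1 to 10.32 in PCK) and Adgrf5 (9.33 in SD to 9.53 in PCK). By pool means, Dmrt2, Hepacam2 and Adgrf5 were lowest in SD, P2ry14 in PCK and Tfcp2l1 in FHH.Pkhd1.

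Of 30 other acid-base genes of the kidney, 15 were tested. Slc4a7, a sodium bicarbonate cotransporter, rose by 0.75 ± 0.04 in PCK over SD (adjusted p = 2.38e-08) and differed by 0.00 ± 0.04 between FHH.Pkhd1 and FHH (adjusted p = 0.959). Slc4a2, a widely expressed anion exchanger related to Slc4a1, rose by 0.61 ± 0.12 in FHH.Pkhd1 over FHH (adjusted p = 0.00279). No other of the 15 was called in these comparisons or the remaining ones. At the adjusted p alone, 1 of the 15 was higher and 3 lower in PCK minus SD, against 17.3% and 18.8% of all genes. The median was -0.02 beside -0.00, and the lowest value was that of Car14, at -0.49. In FHH.Pkhd1 minus FHH 5 were higher and 2 lower, against 12.5% and 9.70%. The median was 0.00 beside 0.01, and Slc38a3 was lowest, at -0.43. Car14, a membrane carbonic anhydrase, was 0.45 ± 0.04 lower in PCK than in FHH.Pkhd1 (adjusted p = 1.08e-06), and Insrr, a receptor that senses alkali, was 0.43 ± 0.12 higher (adjusted p = 0.00872). Car12, another membrane carbonic anhydrase, was 0.35 ± 0.07 higher in SD than in FHH (adjusted p = 0.00268).

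Principal cells are the neighbours of intercalated cells in the collecting duct, and all 12 of their listed markers were tested. By pool means, 9 of the 12 were lowest in SD and 11 highest in FHH.Pkhd1, against 30.1% and 37.4% of all genes. Of the 12, 5 followed the full order of the Foxi1 means (SD, FHH, PCK, FHH.Pkhd1). The share of all genes in that order was not counted. For Foxi1 the last step was not resolved (PCK minus FHH.Pkhd1 -0.06 ± 0.05, adjusted p = 0.309). In PCK minus SD, 8 were higher at the adjusted p alone, against 17.3% of all genes, and none lower, against 18.8%. The median was 0.21 beside -0.00 over all genes, and Aqp3, a basolateral water channel, rose by 0.63 ± 0.04 (adjusted p = 4.37e-07). Aqp3 alone of the 12 was called, against 1.69% of all genes called higher. In FHH.Pkhd1 minus FHH, 11 were higher, against 12.5% of all genes, and none lower, against 9.70%. The median was 0.25 beside 0.01, and Scnn1a, the alpha subunit of the epithelial sodium channel, rose by 0.85 ± 0.08 (adjusted p = 1.03e-05). Scnn1a alone of the 12 was called, against 0.395% of all genes called higher.

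The summed level of the 12 was 13.58 to 13.64 in SD, 13.82 to 13.83 in FHH, 13.95 to 13.98 in PCK and 14.10 to 14.11 in FHH.Pkhd1, without overlap. The summed level of the 8 intercalated cell genes was 13.46 to 13.48 in SD, 13.63 to 13.66 in FHH, 13.63 to 13.67 in PCK and 13.76 to 13.81 in FHH.Pkhd1, lowest and highest in the same pools. These linear sums follow their brightest genes, Aqp2 among the 12, and Car2 and Atp6v0a4 among the 8. The part of the collecting duct's share of the tissue in the differences of the 8 genes was not tested.

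By summed level, other segments did not show that full order, which was not counted gene by gene for them. None of 9 proximal tubule markers was called in any comparison, and at most 5.83% of all genes were. Their summed level stayed between 15.26 and 15.37 on all arrays. The proximal tubule marker Cubn did follow the full order, at 11.49 in SD, 11.72 in FHH, 11.74 in PCK and 11.90 in FHH.Pkhd1. Cubn was 0.25 ± 0.03 higher in PCK than in SD (adjusted p = 7.11e-05). In FHH.Pkhd1 it exceeded FHH by 0.18 ± 0.03 (adjusted p = 0.00161). At the adjusted p alone, 1 of the 9 was higher and 3 lower in PCK minus SD, against 17.3% and 18.8% of all genes. In FHH.Pkhd1 minus FHH 2 were higher and 1 lower, against 12.5% and 9.70%. In SD minus FHH 5 were higher and 2 lower, against 12.6% and 24.4%. Of 6 markers of the thick ascending limb and distal convoluted tubule, Calb1, the calcium-binding protein of the distal tubule, was called, 0.68 ± 0.03 lower in PCK than in SD (adjusted p = 6.98e-09) and 0.79 ± 0.03 lower than in FHH.Pkhd1 (adjusted p = 1.02e-09). The summed level of the 6 was also highest in FHH.Pkhd1 (14.97 to 15.00), but lowest in PCK (14.74). It was 14.82 to 14.87 in SD and 14.94 to 14.96 in FHH. Among 8 markers of macrophages and osteoclasts, cells that also use the proton pump, Ctss, a lysosomal protease, was 0.66 ± 0.04 higher in PCK than in FHH.Pkhd1 (adjusted p = 3.33e-08), and no other was called between strains. At the adjusted p alone, 6 of the 8 were higher and 1 lower in SD minus FHH, against 12.6% and 24.4% of all genes. The median there was 0.27 beside -0.04. In PCK minus SD 2 were higher and 3 lower, against 17.3% and 18.8%. In FHH.Pkhd1 minus FHH 3 were higher and 1 lower, against 12.5% and 9.70%.

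The genes whose array profile was most like that of Foxi1 were sought among 1448 genes with a span of at least 0.5 between pools. Over the 12 arrays of 4 pools, the 5 outside the set with the highest Pearson r were Aqp3 (0.972), Apoe (0.972), Slc14a2 (0.965), Aqp2 (0.963) and Cldn4 (0.962). Aqp2 and Aqp3 are water channels of principal cells, Slc14a2 is the urea transporter of the inner medulla, Cldn4 a tight junction protein of the collecting duct and Apoe a lipid carrier. Within the set, r with Foxi1 was 0.980 for Atp6v1g3, 0.889 for Rhcg, 0.830 for Slc26a4, 0.800 for Car2, 0.563 for Slc4a1, 0.465 for Atp6v0a4 and 0.220 for Atp6v1b1. The arrays share 4 pools, so these values rank profiles and carry no test.

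Aqp2 read 12.15 in SD, 12.70 in PCK, 12.45 in FHH and 12.74 in FHH.Pkhd1 (pool means, log2), the order seen for Foxi1. Apoe ran from 11.45 in SD to 12.62 in FHH.Pkhd1, the widest span of these 5 genes. Measured against the mean profile of the 8 genes, the highest r belonged to Tle2 (0.995), a transcriptional corepressor, followed by Krt19 (0.980), a keratin of ducts, Fgb (0.978), a fibrinogen chain, Wfdc10a (0.976) and Exph5 (0.974).

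**Figure D5:**
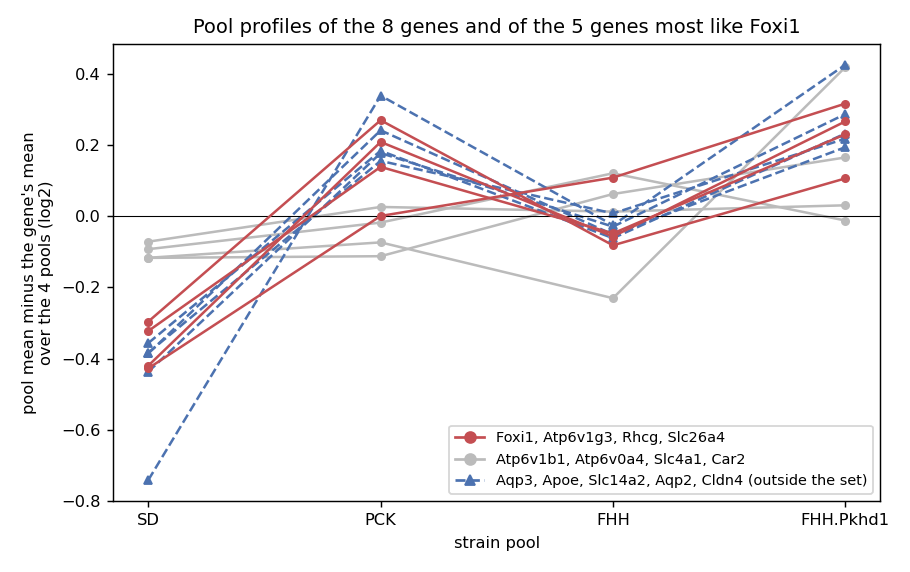
Pool means minus each gene's mean over the 4 pools (vertical axis, log2) by strain pool (horizontal axis). Solid lines with circles are the 8 intercalated cell genes, in colour for Foxi1, Atp6v1g3, Rhcg and Slc26a4 and in grey for the rest, and dashed lines with triangles are the 5 other genes most like Foxi1; the lines join pools with no order between them. The dashed and coloured lines are lowest in SD. Of the grey lines, those of Atp6v1b1, Atp6v0a4 and Car2 are lowest in SD too and that of Slc4a1 in FHH, and they share no 1 shape.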

How the data were processed

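Whole-kidney RNA of 4 strain pools was measured on 3 arrays each, labelled with the 3′ IVT Express kit after Trizol extraction, per the labels' protocols. The authors deposited log2 probe set signals. RMA and Partek 6.2 are named in the submitters' processing notes, which leave unsaid whether all arrays were normalized jointly. Values ran from 2.38 to 14.41 and were used as deposited.

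Of 31099 probe sets, 57 controls were left out. Of the rest, 20826 carried 1 gene symbol, 436 several and 9780 none, and 20758 matched a GRCr8 gene record. The probe set with the highest mean was kept per gene, and a gene was tested where its highest pool mean reached the 40th percentile of non-control values, 5.74, called the detection level. Differences came from limma 3.58.1 (R 4.3.3), with all 12 arrays in 1 model, a mean for each strain and eBayes (prior degrees of freedom 4.01, residual 8), adjusted by Benjamini and Hochberg over 10895 genes. A gene was called at an adjusted p under 0.05 and at least 1.5-fold. The procedure was tested on simulated data. P-values compare 4 pools, and the spread between arrays is technical.

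The members, the gene lists and the tests were chosen with earlier results of these data known. Genes chosen for naming were every member, the members' paralogues, and the 5 genes most like Foxi1 and most like the members' mean profile. Per list and comparison, up to 4 called genes or otherwise the 2 largest differences were chosen too. Of these, Slc5a2, Slc22a6, Aqp4, Elf5, Scnn1g, Cldn16, Aif1, Cd14 and Adgre1 are not given above. Aqp2, Umod and Pck1 were named as markers. Adgrf5, Slc38a3 and markers below the detection level were named outside this rule. Alternatives were no filter or a 60th percentile filter, other probe set choices, no fold limit or 2-fold, an intensity trend, fits of the compared pools alone, quantile or median scaling, a replicate block, and omission of each array in turn. Plots were made with matplotlib 3.10.9 in Python 3.11.15.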

Additional observations from a re-analysis of the deposited data

Results flagged for a closer look

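For 5 genes the results differed between the PCK pair (PCK minus SD) and the congenic pair (FHH.Pkhd1 minus FHH) by the interaction term of the limma fit. Rhcg had the larger excess in the PCK pair by 0.38 ± 0.06 (log2 ± SE, adjusted p = 0.000491), with all 3 PCK arrays above all 3 SD arrays and all 3 FHH.Pkhd1 arrays above all 3 FHH arrays. Foxi1 did so by 0.31 ± 0.07 (adjusted p = 0.00395), Slc26a4 by 0.22 ± 0.07 (adjusted p = 0.0338) and Atp6v1g3 by 0.18 ± 0.05 (adjusted p = 0.0171), again with no overlap in either pair. By its second probe set Atp6v1g3 stood at 0.10 ± 0.07 (adjusted p = 0.325). Slc4a1 went the other way, at -0.61 ± 0.06 (adjusted p = 9.53e-06), with overlap in the PCK pair and none in the congenic pair. The share of all genes whose arrays did not overlap was not counted. Groups of 3 arrays were too small for a test of single outlying arrays.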

How the results depend on the processing

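Among the alternatives, the fold limit moved the counts of members called most. The PCK pair is PCK minus SD and the congenic pair FHH.Pkhd1 minus FHH. With the adjusted p alone, 5 of the 8 were called in each of the 4 strain comparisons and in the interaction, and with a 2-fold limit 0 were called in the PCK pair, the congenic pair and the interaction. Over all genes, calls in the PCK pair went from 339 to 3934 with no fold limit and 111 at 2-fold, in the congenic pair from 138 to 2423 and 31, in PCK minus FHH.Pkhd1 from 635 to 5877 and 201, in SD minus FHH from 361 to 4041 and 114, and in the interaction from 547 to 3345 and 170. Leaving out 1 array gave 1 to 2 members called in PCK minus SD, 0 to 1 in SD minus FHH and 0 to 1 in the interaction. Quantile normalization left 0 in the interaction (Slc4a1 at -0.58). With every probe set on its own, 1 member (Slc4a1) was called in PCK minus FHH.Pkhd1. With an intensity trend, 8 members passed the adjusted p alone in SD minus FHH. In PCK minus SD, 4 rather than 5 passed it in several alternatives, Car2 dropping out. Among these were no filter, the mean of the probe sets, the compared pools alone and the replicate block. Of 815 values of single genes under alternatives other than the fold limit, 807 kept their call or lack of one, 4 lost and 4 gained a call, and no called value turned its sign. A call needs both limits. Values under 1.5-fold that crossed the adjusted p alone, as for Car2 and Atp6v1b1, are therefore counted as kept. Signs turned for uncalled values, most often of Car2 and Atp6v1b1 between PCK and FHH.Pkhd1. The causes were not tested.

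The replicate numbers did not pair the arrays, as same-numbered arrays deviated together with r from -0.33 to 0.34 and 11 of 36 correlated best with their own number. With the replicate block, the counts of members called stayed at 1, 1, 0, 0 and 1 in the order above and the 339 calls of PCK minus SD were again 339. 1 pool per strain and 3 arrays per pool limit every value, and signal over background was not used here.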
